A study of Mus musculus with 36 samples.

Results

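Mouse hearts were compared across the 2 days of gestation between E14.5 and E16.5, where E stands for embryonic day, with E15.5 as the point in between. Whole hearts of OF1 embryos, an outbred mouse strain with no allele or treatment named in the labels, were hybridized to Affymetrix whole-genome mouse arrays, and 9 of the 36 arrays of the series cover these 3 stages. Each stage has 3 arrays, 1 of a female pup, 1 of a male pup and 1 of mixed male and female hearts, so the comparison of E16.5 with E14.5 rests on 3 arrays against 3. The values are log2 intensities after robust multi-array average (RMA), which corrects for background, brings the arrays to a common distribution and combines the short probes that read 1 transcript into a value for the probe set. A log2 change of 1 is a change by a factor of 2, and changes are given as E16.5 minus E14.5 with the standard error (SE) of the model.

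By E14.5 the mouse heart has its 4 chambers, and in the days that follow its wall thickens, the coronary vessels extend and the valves are remodelled from soft cushions of matrix into leaflets. Heart muscle cells at this age still divide while they build up contractile filaments, ion channels and mitochondria. Red blood cells circulate through the heart, and the first of them, made in the yolk sac, carry embryonic globins until they are replaced by cells from the fetal liver that carry adult globins. A whole heart mixes all these cells, so in such bulk RNA fewer cells of a type and less RNA per cell cannot be told apart.

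Of 20701 genes with a gene ID on the array, 9707 were expressed, here a mean log2 intensity above 5 at E14.5 or E16.5. In limma, a linear model that steadies the variance of each probe set with that of all others, 39 genes were higher at E16.5 and 21 were lower at a Benjamini-Hochberg adjusted p under 0.05. These are 0.402% and 0.216% of the expressed genes, 0.618% together, and 25 of the higher and 13 of the lower genes differed by more than 1 on the log2 scale. Of the called genes, 10 higher ones had an E14.5 mean under 5 and 8 lower ones an E16.5 mean under 5, so that they passed the limit only through the stage where they were high, and near background the log2 change may understate the true one. At an unadjusted p under 0.05 there were 445 higher (4.58%) and 342 lower (3.52%) genes, the shares against which such counts in the gene lists stand. For all 60 genes called, the E14.5 arrays and the E16.5 arrays did not overlap, which was also so for 819 higher genes (8.44%) and 940 lower genes (9.68%) among all expressed ones. Over all expressed genes the median log2 change was -0.03, with 4201 positive and 5506 negative values. The set of calls is small and shrinks when 1 array is left out. Each such fit also has fewer arrays, so lower precision and the weight of a given array cannot be told apart. Without 1 of the 6 arrays, the higher genes numbered 22 (without the E14.5 female array), 27 (E14.5 male), 24 (E14.5 mixed), 26 (E16.5 male), 26 (E16.5 mixed) and 23 (E16.5 female). The lower genes numbered 10, 14, 9, 11, 6 and 13 in the same order. In all 6 of these fits 22 of the 60 genes were called each time, 17 higher and 5 lower.

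**Figure D1:**
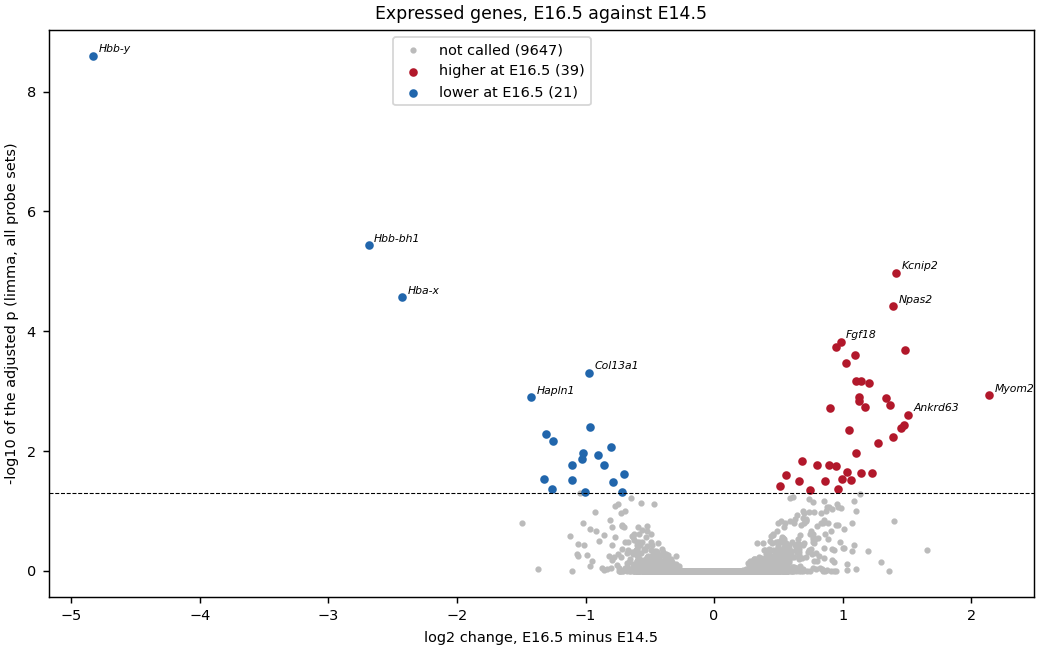
Each point is 1 of 9707 expressed genes, with the log2 change from E14.5 to E16.5 on the horizontal axis and -log10 of the limma adjusted p on the vertical axis; the dashed line marks an adjusted p of 0.05. The 3 embryonic globins stand to the far left, between -4.83 and -2.43, and Myom2 is farthest to the right at 2.14.

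The ranges of the array measures given here overlapped between E14.5 and E16.5. With the hybridization controls as a covariate, though, 80 genes were higher and 32 lower. Correlations between arrays of a stage lay between 0.983 and 0.993 at E14.5 and between 0.987 and 0.993 at E16.5, and 36.2% to 37.1% and 36.5% to 36.6% of all probe sets had values above 5. The E14.5 mixed array correlated best with the E13.5 male array rather than with its own stage. Hybridization controls, added in equal amounts to every array, averaged 10.60 to 11.14 at E14.5 and 10.71 to 11.56 at E16.5, and the difference between 3′ and 5′ probe sets of Gapdh, which grows with RNA degradation, was 4.29 to 4.83 and 4.68 to 5.07. This log2 difference was alike at E15.5 (4.31 to 5.06). It was smaller in the E10.5 arrays (2.25, 2.19 and 3.95) and in the young adult female, male and mixed arrays (1.87, 1.39 and 2.25). Xist, the RNA of the inactive X chromosome, was between 10.15 and 11.26 in the female and mixed arrays of both stages and at 2.29 and 2.10 in the male arrays, matching their labels. In the E15.5 array labelled male it was 7.34, beside 8.16 for the Y-linked Eif2s3y, so that array held both. Of 13 liver genes on the array, the organ that the extraction protocol of the labels names in place of the heart, none reached a mean of 5 and the highest single value was 4.15. Markers of lung epithelium, thymus and cartilage were expressed in 1 of 10, 1 of 11 and 3 of 12 genes.

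The largest falls of the step were those of the embryonic globins, the oxygen carriers of the first red blood cells. All 3 were called lower. Hbb-y encodes the embryonic epsilon-type beta chain, Hbb-bh1 the other embryonic beta-like chain and Hba-x the embryonic zeta-type alpha chain. The 250 bases before the start of Hbb-y and Hba-x, the embryonic globins held by the RefSeq promoter table (GRCm38.p6), are shown because these genes carry the largest changes and bear the short motifs known from globin promoters. Hbb-y lies on the minus strand at chr7:103853208-103853457 and Hba-x on the plus strand at chr11:32276350-32276599, both written 5′ to 3′ along the gene. Capitals mark the motif CACCC, the motif CCAAT and the motif TATAAA, searched on both strands, with no overlap between the matches.
Hbb-y: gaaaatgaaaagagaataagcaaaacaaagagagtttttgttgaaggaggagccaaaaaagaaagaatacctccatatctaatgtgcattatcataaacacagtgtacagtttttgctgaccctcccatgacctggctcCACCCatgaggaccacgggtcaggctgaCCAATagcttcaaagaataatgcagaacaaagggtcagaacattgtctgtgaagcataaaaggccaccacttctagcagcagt
Hba-x: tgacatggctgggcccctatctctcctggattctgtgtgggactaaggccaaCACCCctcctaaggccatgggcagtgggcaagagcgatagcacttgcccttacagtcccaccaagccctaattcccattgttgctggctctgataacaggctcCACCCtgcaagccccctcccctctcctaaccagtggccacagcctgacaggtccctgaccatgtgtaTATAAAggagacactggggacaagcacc
The Hbb-y window held 1 CACCC and 1 CCAAT and no TATAAA. The Hba-x window held 2 CACCC, no CCAAT and 1 TATAAA that begins 28 bases before the start. Among 32851 promoter windows of this length, 52.0% held CACCC, 33.8% CCAAT and 12.4% TATAAA on either strand. These are matches of letters and not bound sites.

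Hbb-y read 12.79, 13.12 and 12.51 in the female, male and mixed arrays of E14.5, 10.27, 10.99 and 10.22 at E15.5 and 8.67, 8.64 and 6.62 at E16.5. Every later stage lay below every array of the stage before, and the E16.5 mixed array was lower than the other two. The fall was 28.4-fold (-4.83 ± 0.37 log2, SE; limma adjusted p = 2.54e-09). Both other Hbb-y probe sets above 5 gave -4.62 and -4.81. At E10.5, E12.5 and E13.5 its stage means were 13.60, 13.81 and 13.63, and at E12.5 no probe set on the array was higher. Whether the array was saturated there was not tested.

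Hbb-bh1 read 6.44, 6.61 and 5.97 at E14.5, 4.32, 3.97 and 3.63 at E15.5 and 3.55, 3.96 and 3.43 at E16.5, in the same order of arrays. The E14.5 arrays stood alone above 5, and E15.5 and E16.5 overlapped. The change was -2.69 ± 0.30 (adjusted p = 3.69e-06). Another Hbb-bh1 probe set gave -2.51, and one under the expression limit gave -1.03 (limma adjusted p = 0.326). The E15.5 and E16.5 means, 3.97 and 3.65, lay close to the young adult mean of 3.33, so the fall has only a lower bound. Hba-x read 6.50, 7.10 and 6.29 at E14.5, 5.42, 5.79 and 5.05 at E15.5 and 4.70, 4.01 and 3.89 at E16.5, with no overlap between any of the stages. It changed by -2.43 ± 0.31 (adjusted p = 2.71e-05). All 3 embryonic globins were called in each of the 6 fits that leave out 1 array.

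The list of adult globins and erythroid genes did not follow this fall as a group, though it says little about the adult globins themselves. Of 42 genes in that list 38 were on the array, 19 were expressed and 0 were called in limma in either direction, with 1 higher and 2 lower at an unadjusted p under 0.05. The median over the 19 was -0.11, beside -0.03 for all expressed genes, and 6 of them were positive. The adult beta chain Hbb-b2 read 6.28, 6.63 and 6.03 at E14.5 and 6.24, 6.39 and 6.16 at E16.5, and the 2 stages overlapped in full (-0.05 ± 0.19). A second Hbb-b2 probe set was under the expression limit, with means of 3.92 and 3.61 (-0.31 ± 0.50). So were the adult alpha chains Hba-a1 (2.87 and 2.69) and Hba-a2 (2.65 and 2.80). Hbb-b1 has no probe set paired with its gene ID, so Hbb-b2 alone stands for the adult globins here. Globin genes are near copies of each other, and cross-hybridization between them was not tested. The lowest member was Ahsp, which stabilizes free alpha globin, at -1.37 (adjusted p = 0.932). Alas2, the first enzyme of haem synthesis in red cells, read 5.65, 5.87 and 5.36 at E14.5 and 5.58, 5.70 and 5.33 at E16.5. The red cell anion exchanger Slc4a1 read 6.58, 7.45 and 5.57 against 5.73, 6.62 and 5.22. Both overlapped between the stages. Ahsp, Alas2 and Slc4a1 were picked after their values were seen, and the part of blood content in the globin values was not tested.

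**Figure D2:**
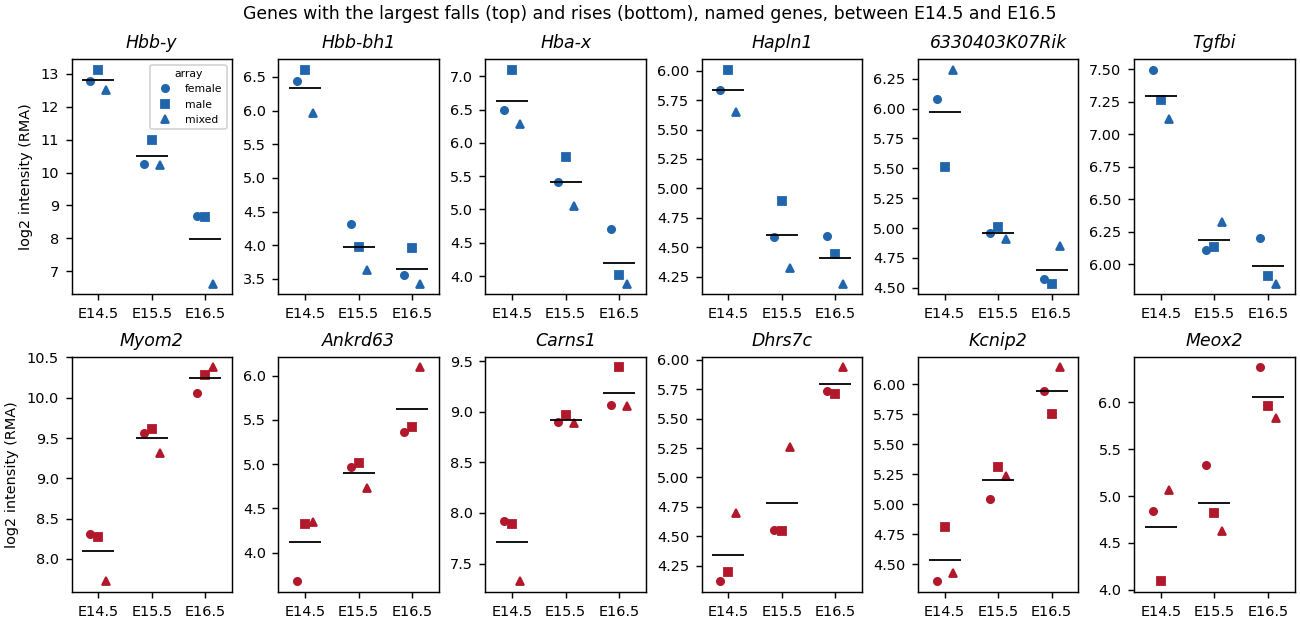
Log2 intensity of 12 genes in the 9 arrays of E14.5, E15.5 and E16.5, each panel with its own vertical scale, with a circle for the female, a square for the male and a triangle for the mixed array and a bar at the stage mean. The top row holds the 6 largest falls and the bottom row 6 of the largest rises; in every panel the E15.5 mean lies between the other two.

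Lower genes also included some that encode matrix, matrix-bound or matrix-modifying proteins, gathered here after the calls were seen and not from 1 list. Hapln1, the link protein that ties proteoglycans to hyaluronan in the cardiac jelly, read 5.84, 6.01 and 5.65 at E14.5, 4.59, 4.89 and 4.32 at E15.5 and 4.60, 4.44 and 4.19 at E16.5. The E14.5 arrays were all above the 6 later ones, which overlapped. Its change was -1.42 ± 0.23 (limma adjusted p = 0.00126), and it was called whichever array was left out. Tgfbi, a secreted adhesion protein induced by TGF-beta, fell from 7.50, 7.26 and 7.12 to 6.20, 5.91 and 5.85 (-1.31 ± 0.24, adjusted p = 0.00527), with 3 other probe sets between -1.34 and -0.80. Its call was lost without the E14.5 female or the E16.5 mixed array (adjusted p up to 0.0670). Npnt, nephronectin of basement membranes, read 5.77, 5.64 and 6.08 and then 4.66, 4.36 and 4.70 (-1.26 ± 0.28, adjusted p = 0.0434). That call was lost whichever array was left out, with an adjusted p up to 0.283 without the E16.5 male array. Col13a1, a collagen that spans the cell membrane, fell from 6.34, 5.94 and 6.30 to 5.37, 5.20 and 5.09, a change of -0.97 ± 0.15 with a small spread (adjusted p = 0.000487), and was called in all 6 reduced fits. Hs6st2, which sulphates heparan sulphate chains, read 5.95, 5.83 and 6.29 and then 5.20, 5.09 and 4.76 (2.01-fold lower, adjusted p = 0.0477) and was called in none of them (up to 0.364 without the E16.5 mixed array).

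The lists of collagens and of other matrix proteins held 1 called gene each, both lower, beside 0.216% of all expressed genes called lower. Of 22 expressed collagens Col13a1 was the 1 called, 11 were positive and the median was -0.02. At an unadjusted limma p under 0.05, 2 of them were higher and 3 lower. Of 55 other matrix proteins and proteoglycans Hapln1 was the 1 called, 22 were positive and the median was -0.08. At that unadjusted p 7 of these were higher and 6 lower, beside 4.58% and 3.52% of all expressed genes. The main fibrillar collagens overlapped between the stages. Col1a1 read 10.31, 10.34 and 9.79 at E14.5 and 10.36, 10.41 and 10.26 at E16.5, and Col3a1 12.44, 12.30 and 12.54 against 12.44, 12.20 and 12.48. The sign of the small Col3a1 change (-0.05 ± 0.24) turned with the scaling by hybridization controls and without the E14.5 mixed or the E16.5 male array. The other Col3a1 probe set above 5 changed by -0.59 and was not called. Decorin (Dcn), a small proteoglycan of fibroblasts, was higher in each E16.5 array (9.79, 9.83 and 10.26) than in any of E14.5 (9.26, 9.30 and 9.69) but was not called (0.54 ± 0.19, adjusted p = 0.590).

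Lists of signalling pathways and transcription factors held further lower genes. Of 29 expressed genes of the BMP and TGF-beta pathway, 3 were called lower, beside 0.216% of all expressed genes, and 0 higher. In the list 10 were positive, and the median of -0.10 lay between -0.17 and -0.0021 without 1 array. Beside Tgfbi these were the ligands Bmp4 and Bmp2, which act in the outflow tract and the cushions. Bmp4 read 7.39, 7.06 and 6.95 at E14.5, 6.71, 6.44 and 6.48 at E15.5 and 6.35, 6.47 and 5.87 at E16.5. Its highest E16.5 array stayed below its lowest E14.5 array (-0.91 ± 0.18, limma adjusted p = 0.0118). Bmp2 read 6.77, 6.40 and 6.77 and then 6.14, 5.96 and 5.73 (-0.70 ± 0.15, adjusted p = 0.0241). Without the E16.5 mixed array neither call held (adjusted p = 0.211 for Bmp4 and 0.290 for Bmp2), and without the E14.5 female array both were lost too. Bmp2 was also lost without the E14.5 mixed or the E16.5 male array.

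Of 21 expressed Wnt pathway genes 1 was called, the non-canonical ligand Wnt5a, which read 7.45, 7.44 and 7.17 at E14.5 and 6.30, 6.36 and 6.09 at E16.5 (-1.10 ± 0.24, limma adjusted p = 0.0308). The groups did not overlap, but the call did not survive the loss of any array (adjusted p up to 0.226 without the E16.5 mixed array). The other Wnt5a probe set above 5 changed by -0.66 and was not called. The list had 6 positive genes and a median of -0.23, and its highest change, that of the secreted Wnt inhibitor Wif1, was not called (adjusted p = 0.702). Twist1, a factor of cushion mesenchyme, was the 1 called of 40 expressed cardiac transcription factors, at 6.17, 5.76 and 6.16 and then 5.12, 4.68 and 4.98 (-1.10 ± 0.22, adjusted p = 0.0168). Its call was lost without the E14.5 female, E14.5 mixed, E16.5 male or E16.5 mixed array (up to 0.171). The other 39 transcription factors included 13 with a positive change, and the median of the list was -0.10. Gata5 was under the expression limit, with means of 4.60 at E14.5 and 3.65 at E16.5 (-0.96, limma adjusted p = 0.00210).

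Midkine (Mdk), a heparin-binding growth factor of embryonic tissue, read 7.50, 7.57 and 7.57 and then 6.76, 6.42 and 6.55 (-0.97 ± 0.17, limma adjusted p = 0.00396; 0.0513 without the E16.5 male array). Cdkn1c, the imprinted inhibitor of cyclin-dependent kinases known as p57, read 10.69, 10.56 and 10.78 at E14.5, 10.47, 10.02 and 10.44 at E15.5 and 9.63, 9.67 and 9.65 at E16.5. The 3 E16.5 arrays lay close together and below all of E14.5 (-1.02 ± 0.20, adjusted p = 0.0134), and the call held without the E14.5 male array and was lost without any 1 of the other 5 (up to 0.0839). It was the 1 called of 25 expressed imprinted and fetal growth genes. In that list 4 genes were positive and the median was -0.20. The growth factor Igf2 read 10.48, 10.28 and 10.71 against 10.28, 9.66 and 10.05 (-0.50 ± 0.26), and the non-coding H19 from the same locus 11.20, 11.09 and 11.54 against 11.16, 10.71 and 10.99 (-0.32 ± 0.34). The stages overlapped for H19, and the lowest Igf2 value of E14.5 lay just above the highest of E16.5. The gene 6330403K07Rik, of which only the clone name is given, read 6.08, 5.51 and 6.32 and then 4.58, 4.53 and 4.85 (-1.32 ± 0.28, adjusted p = 0.0288) and was called in 1 of the 6 reduced fits (up to 0.227 without the E14.5 mixed array).

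The largest rise was that of a gene of the contractile apparatus. Myom2 encodes M-protein, which links thick filaments at the M-band in the middle of the sarcomere. It read 8.31, 8.27 and 7.72 at E14.5, 9.57, 9.61 and 9.32 at E15.5 and 10.06, 10.29 and 10.38 at E16.5. The stages did not overlap, and the E14.5 mixed array was the lowest and the E16.5 mixed array the highest. The rise was 4.40-fold (2.14 ± 0.35, limma adjusted p = 0.00117), and 2 other probe sets gave 1.88 and 2.00. The call held whichever array was left out.

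Among the troponins 1 gene was called. Tnnt1, the troponin T of slow skeletal muscle that the early heart also uses, read 9.55, 9.71 and 10.19 at E14.5, 9.49, 8.98 and 9.59 at E15.5 and 8.76, 8.61 and 8.31 at E16.5. All E16.5 arrays lay below E14.5 and E15.5 (-1.26 ± 0.24, limma adjusted p = 0.00672), though the call was lost without the E14.5 mixed or the E16.5 mixed array (up to 0.0937). Tnni3, the adult cardiac troponin I, read 10.87, 10.76 and 11.18 at E14.5 and 11.45, 11.19 and 11.65 at E16.5 (0.50 ± 0.16, adjusted p = 0.376). Tnni1, its fetal counterpart, read 9.28, 9.08 and 10.18 against 9.64, 9.05 and 9.74, where the mixed arrays were highest at both stages (-0.03 ± 0.32, a sign that turned with the hybridization controls as a covariate and without the E14.5 mixed or the E16.5 male array). The beta myosin heavy chain Myh7 lay between 13.57 and 13.67 at E14.5 and between 13.67 and 13.87 at E16.5 (0.13 ± 0.24). The alpha chain Myh6 has no probe set paired with its gene ID and was not analysed here. Cardiac actin (Actc1) read 12.54, 12.51 and 13.19 against 12.81, 12.24 and 12.96, and skeletal actin (Acta1) 7.64, 7.19 and 8.65 against 7.75, 6.71 and 7.55, both overlapping. Of 50 expressed sarcomere genes Myom2 and Tnnt1 were the 2 called. In the list 37 were positive and the median was 0.18, or 0.08 to 0.28 without 1 array.

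The lists of ion channels of the action potential and of calcium handling held 1 called gene. Kcnip2 encodes KChIP2, the subunit that sets the transient outward potassium current of the action potential. It read 4.36, 4.81 and 4.43 at E14.5, 5.05, 5.31 and 5.24 at E15.5 and 5.95, 5.76 and 6.14 at E16.5, with no overlap between any 2 of the stages. The rise of 1.41 ± 0.17 had the lowest adjusted p of all higher genes (1.07e-05 in limma, and 0.000500 at most without 1 array). The other 21 expressed channel genes were not called. In that list 15 of 22 were positive, with a median of 0.16. Among 34 expressed calcium handling genes 0 were called in limma, 8 higher and 1 lower had an unadjusted p under 0.05, 24 were positive and the median was 0.19. The release channel Ryr2 read 7.76, 7.58 and 7.95 at E14.5 and 8.21, 8.29 and 8.44 at E16.5, so its stages were apart (0.55 ± 0.19, adjusted p = 0.485). The calcium pump Atp2a2 read 10.83, 10.88 and 11.59 against 11.51, 11.25 and 11.98 (0.48 ± 0.23), and its inhibitor Pln 11.36, 11.60 and 11.67 against 11.59, 11.50 and 11.82 (0.09 ± 0.18). Both overlapped. Casq2, the calcium-storing protein of the sarcoplasmic reticulum, was the highest of the list and was picked for that, at 9.85, 10.01 and 10.30 and then 10.88, 10.74 and 11.16 (0.87 ± 0.22, adjusted p = 0.0991). Dhrs7c, a dehydrogenase of the sarcoplasmic reticulum that is in none of the lists, was called, with 4.12 to 4.70 at E14.5 and 5.73, 5.71 and 5.93 at E16.5 (1.45 ± 0.26, adjusted p = 0.00404; 0.0577 without the E14.5 female array).

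The list of fatty acid uptake and oxidation held 1 called gene, and Mgll, a lipase outside it, is given beside it. Acsl1, the acyl-CoA synthetase that activates long-chain fatty acids, read 7.36, 7.47 and 7.43 at E14.5, 8.19, 8.14 and 8.12 at E15.5 and 8.74, 8.37 and 9.15 at E16.5. The mixed array was the highest at E16.5, and even the lowest E16.5 array was above E15.5 (1.33 ± 0.22, limma adjusted p = 0.00128). Mgll, monoacylglycerol lipase, which completes the breakdown of stored fat, read 6.02, 5.83 and 5.72, then 6.56, 6.15 and 6.65 and then 7.29, 7.02 and 7.36 (1.37 ± 0.23, adjusted p = 0.00171). Each had a second probe set, at 1.20 for Acsl1 and 1.11 for Mgll, and both calls held without any 1 array. Acsl1 was the 1 called of 38 expressed genes of the list. In the list 33 were positive and the median was 0.20. The fatty acid transporter Cd36 read 6.94, 6.90 and 7.57 at E14.5 and 8.27, 7.90 and 8.46 at E16.5, with no overlap (1.07 ± 0.28, adjusted p = 0.159). Of its 2 other probe sets, at 0.75 and 0.90, 1 was called, and 4 of 15 alternative fits called the gene, at 0.00486 with the hybridization controls as a covariate. Fabp4, the fatty acid binding protein of capillaries and fat cells, read 10.15, 10.09 and 10.60 against 11.26, 10.95 and 11.25 (0.88 ± 0.42, adjusted p = 0.976). Its 3 other probe sets lay between 0.81 and 1.67, and 1 was called. Fabp3 of heart muscle read 9.11, 8.87 and 10.08 against 9.74, 8.89 and 10.40, which overlapped (0.33 ± 0.35). Cpt1b was not analysed here, since no probe set is paired with its gene ID.

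Of 76 expressed genes of the respiratory chain and ATP synthase 71 were positive, with a median of 0.22 against -0.03 for all expressed genes, yet 1 was called. The median ranged from 0.03 to 0.36 over the alternative fits. The mean level of the list was 9.72, 9.66 and 10.21 in the female, male and mixed arrays of E14.5. At E16.5 it was 10.08, 9.70 and 10.44, so the stages overlapped and the mixed array was highest at both. The called gene was Cox6a2, the heart and muscle form of a subunit of cytochrome c oxidase. It read 9.47, 9.51 and 9.61 at E14.5, 9.81, 9.85 and 9.94 at E15.5 and 10.23, 10.12 and 10.28 at E16.5, with the 3 stages apart (0.68 ± 0.14, limma adjusted p = 0.0144; up to 0.120 without the E14.5 female array, and lost without the E14.5 male, E16.5 mixed or E16.5 female array too). The other Cox6a2 probe set above 5 changed by 0.55 and was not called. Glycolysis and glucose transport had 0 calls in limma among 34 expressed genes, with 5 higher and 1 lower at an unadjusted p under 0.05 and a median of 0.13 that turned sign without 1 array (-0.01 to 0.21). The fetal glucose transporter Slc2a1 read 11.33, 11.38 and 11.06 against 11.14, 11.14 and 10.76 (-0.25 ± 0.16), which overlapped.

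The lists of blood vessels and their wall held 2 called genes, both higher. Meox2, a homeobox factor of vascular endothelium, read 4.84, 4.09 and 5.06 at E14.5, 5.33, 4.82 and 4.63 at E15.5 and 6.37, 5.97 and 5.83 at E16.5. The E15.5 arrays lay within the range of E14.5 or just above it, and the E16.5 arrays were all higher (1.39 ± 0.26, limma adjusted p = 0.00579; lost without the E14.5 male array, at 0.115, or the E16.5 female array). It was the 1 called of 47 expressed genes of endothelium and coronary vessels, of which 15 higher and 0 lower had an unadjusted p under 0.05, 30 were positive and the median was 0.17. Rgs5, a regulator of G protein signalling and a marker of pericytes, was the 1 called of 14 expressed smooth muscle genes. It read 8.39, 8.42 and 8.22 and then 9.44, 9.50 and 9.28 (1.06 ± 0.23, adjusted p = 0.0304), with 2 other probe sets at 0.58 and 0.98, and was called in none of the 6 reduced fits (up to 0.177 without the E16.5 male array). The list had 9 positive genes and a median of 0.15. Of 21 genes of epicardium and mesothelium 10 were expressed and 0 were called in limma, with 0 higher and 1 lower at an unadjusted p under 0.05 and a median of -0.31.

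Npas2, a clock factor that pairs with Bmal1, read 4.01, 4.43 and 3.94 at E14.5, 5.18, 5.34 and 4.86 at E15.5 and 5.29, 5.40 and 5.86 at E16.5. All E14.5 arrays lay below all later ones (1.39 ± 0.18, limma adjusted p = 3.85e-05). It was the 1 called of 12 expressed clock genes, 6 of which were positive, with a median of 0.0038. Time of day of the dissections is not given in the sources used here. Of 21 expressed genes of the glucocorticoid response 18 were positive and the median was 0.28, with 9 higher and 0 lower at an unadjusted p under 0.05. The receptor Nr3c1 itself overlapped between the stages (6.63 ± 0.26 at E14.5 and 6.74 ± 0.22 at E16.5, mean ± SD, n = 3; log2 change 0.12 ± 0.17). The 1 gene called was the sulphotransferase Sult1a1, at 5.08, 4.98 and 5.13 and then 5.83, 5.87 and 6.17 (0.89 ± 0.18, adjusted p = 0.0168; called in 1 of the 6 reduced fits, the one without the E16.5 female array, and at 0.193 without the E16.5 mixed array). Picked after their values were seen, Zbtb16 read 5.11, 5.41 and 5.13 and then 6.57, 6.64 and 6.63 (1.40 ± 0.36, adjusted p = 0.145), and Klf9 7.40, 7.36 and 7.16 and then 8.25, 8.67 and 8.30 (1.10 ± 0.27, adjusted p = 0.101). Both are transcription factors induced by glucocorticoids, and in both the stages did not overlap, without a call, although 1 other Klf9 probe set was called. Among 18 expressed genes of thyroid hormone action and metabolic nuclear receptors, a list that shares Klf9, 0 were called, 14 were positive and the median was 0.14.

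Other genes of the 15 highest rises have scattered roles. Carns1, carnosine synthase, read 7.92, 7.89 and 7.33 at E14.5, 8.90, 8.97 and 8.89 at E15.5 and 9.07, 9.44 and 9.06 at E16.5. Most of its rise lay before E15.5 (1.48 ± 0.26, limma adjusted p = 0.00373; 0.0583 without the E14.5 mixed array, the lowest). Ankrd63, an ankyrin repeat protein, rose from 3.68, 4.33 and 4.35 to 5.36, 5.42 and 6.09 (1.51 ± 0.26, adjusted p = 0.00245) and lost its call without the E14.5 female or E16.5 mixed array (up to 0.0577). Lynx1, a membrane-anchored modulator of acetylcholine receptors, read 6.52, 6.53 and 6.30 and then 7.58, 7.67 and 7.73 (1.21 ± 0.19, adjusted p = 0.000728), and the actin-binding LIM protein Ablim3 4.72, 4.25 and 4.54 and then 5.79, 5.70 and 5.54 (1.17 ± 0.20, adjusted p = 0.00180). Both were called in all 6 reduced fits. Colec11, a secreted collectin, read 6.01, 5.69 and 5.73, then 7.28, 6.58 and 6.69 and then 7.36, 6.98 and 6.91, so that E15.5 already overlapped E16.5 (1.28 ± 0.24, adjusted p = 0.00731; lost without the E14.5 male, E14.5 mixed or E16.5 female array, up to 0.0977). Smr2 (1.23 ± 0.26, adjusted p = 0.0232) was called in 1 of the 6 reduced fits, without the E14.5 male array, and the flavin monooxygenase Fmo1 (1.14 ± 0.24, adjusted p = 0.0229) in 2, without the E14.5 mixed or the E16.5 mixed array, with adjusted p up to 0.225 for Smr2 and 0.222 for Fmo1. Gstm1, a glutathione transferase, was the 1 called of 30 expressed genes in the list of antioxidant enzymes and metallothioneins. It read 5.52, 5.78 and 5.69 and then 6.49, 6.36 and 6.54 (0.80 ± 0.16, limma adjusted p = 0.0168). The call was lost without the E14.5 female array (up to 0.172) and without the E14.5 mixed, E16.5 mixed or E16.5 female array. Of the 2 other Gstm1 probe sets above 5, at 0.33 and 0.77, 1 was called. In that list, which also holds the creatine kinase Ckmt2, 16 were positive and the median was 0.07.

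The other 20 higher and 4 lower genes called fall outside the rule for named genes and are given for completeness. In 9 of them, all higher, the call held whichever array was left out. Art3, of the ADP-ribosyltransferase family, changed by 1.14 and read 5.42, 5.93 and 5.97 at E14.5 against 6.85, 6.93 and 6.96 at E16.5. Smim5, a small membrane protein, changed by 1.13, Itgb1bp2, the muscle protein melusin that binds integrin tails, by 1.12, and Lims2, an adaptor at focal adhesions, by 1.09. Melusin read 7.13, 7.06 and 7.46 at E14.5 and 8.21, 8.37 and 8.44 at E16.5, and Lims2 6.49, 5.73 and 5.80 and 7.03, 7.13 and 7.14. Adck3, of coenzyme Q synthesis, changed by 1.10 and Coq10a, which binds coenzyme Q, by 0.90. Adck3 read 5.41, 5.59 and 5.69 and then 6.63, 6.70 and 6.67. Car14, a membrane-bound carbonic anhydrase, changed by 1.03, the growth factor Fgf18 by 0.98, with 5.25, 5.37 and 5.08 at E14.5 and 6.28, 6.24 and 6.14 at E16.5, and the alpha tubulin Tuba4a by 0.95, with 8.14, 8.09 and 8.24 and then 9.12, 9.07 and 9.12. The 2 other Tuba4a probe sets above 5 changed less, by 0.06 and 0.48, and were not called. For these 9 the E16.5 arrays were all above E14.5, and the limma adjusted p lay between 0.000149 and 0.00193. The other 11 higher genes lost their call without at least 1 array, at limma adjusted p values up to 0.326, the value of Zcchc5 without the E16.5 mixed array. They were Plin4 of lipid droplets (1.11), the glutathione transferase Mgst2 (1.05), the nuclear long non-coding RNA Neat1 (1.03), the sulphonylurea receptor Abcc8 of ATP-sensitive potassium channels (0.99), the adhesion molecule Ceacam1 (0.97), 4632404M16Rik (0.95), Copg2os2 (0.86), Zcchc5 (0.75), the phosphodiesterase Pde2a (0.66), Tmem204 (0.56) and the actin-binding Ablim1 (0.51). The 4 lower genes did so too. They were Wscd2 (-0.86), the palmitoyltransferase Zdhhc23 (-0.80), the small GTPase Rhou (-0.79) and the membrane protein Basp1 (-0.72), with values up to 0.387, that of Basp1 without the E14.5 female array. With the sex label as a replicate block, 8 of the 60 called genes passed the threshold no longer, all among these. They were Basp1, Ablim1, Tmem204, Pde2a, Zcchc5, Copg2os2, Ceacam1 and Abcc8, at adjusted p between 0.0555 and 0.105.

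Genes of cell division were not called, though most of their changes were small and negative. Among 60 expressed genes of mitosis and the kinetochore 0 were called in limma, 0 higher and 3 lower had an unadjusted p under 0.05, and 54 of 60 were negative with a median of -0.16. The 3 are near the share of 3.52% in all expressed genes. Among 60 of DNA replication and S phase 0 were called, 0 higher and 7 lower had an unadjusted p under 0.05, and 53 were negative with a median of -0.21. The medians ranged from -0.21 to -0.12 and from -0.22 to -0.13 over the alternative fits. The proliferation antigen Mki67 read 9.57, 9.68 and 9.73 at E14.5 and 9.51, 9.49 and 9.52 at E16.5 (-0.16 ± 0.22). Topoisomerase Top2a read 9.28, 9.25 and 9.74 against 9.22, 8.95 and 9.22 (-0.29 ± 0.23). Its other probe set above 5 went the other way, at 0.11. For Mki67 and Top2a, on the probe sets read here, the stages did not overlap but lay close. The mitotic kinase Cdk1 read 7.86, 7.91 and 8.44 against 7.80, 7.49 and 8.04 (-0.29 ± 0.22) and overlapped. Cyclin Ccnb1 is read here from a probe set at 3.75 to 4.14, under the expression limit. None of these single changes was larger than 2 standard errors.

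The natriuretic peptides varied more between arrays of a stage than between the stages. Nppa read 9.91, 10.01 and 11.65 at E14.5 and 10.69, 10.09 and 11.25 at E16.5, with the mixed array highest at both (0.15 ± 0.51). Nppb read 9.10, 9.27 and 10.01 against 10.18, 9.81 and 10.75 (0.79 ± 0.35, limma adjusted p = 0.919), where the E14.5 mixed array overlapped E16.5. The sign of the Nppa change turned when the E14.5 female, E14.5 male or E16.5 mixed array was left out. The median over the 25 chamber genes was -0.09, and 10 were positive.

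**Figure D3:**
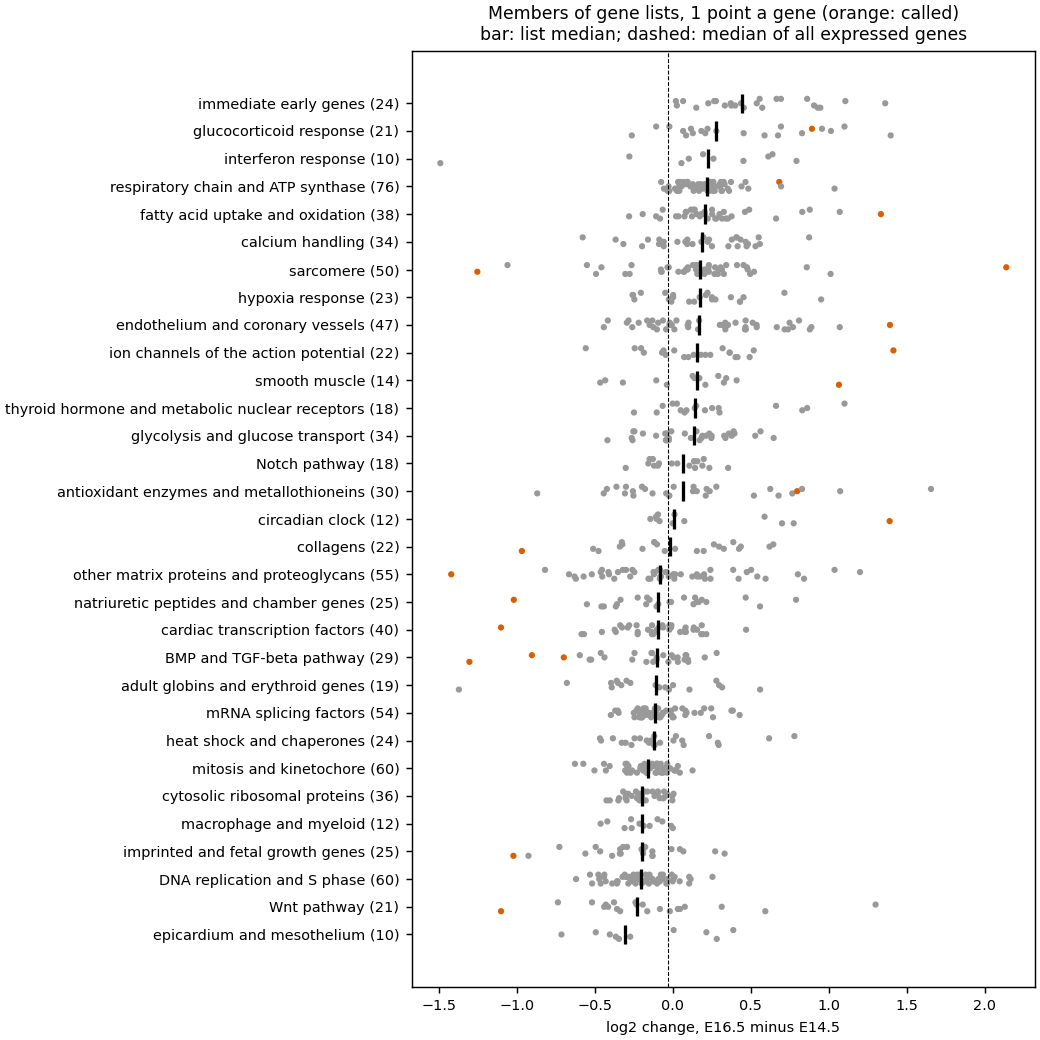
Each grey point is the log2 change of 1 expressed member of a list, orange points are called genes, the bar is the list median and the dashed line the median of all expressed genes at -0.03; numbers after the names are expressed members. List medians run from -0.31 for epicardium and mesothelium to 0.45 for immediate early genes, with most single genes not called. Between them lie respiration (0.22), fatty acid use (0.20), mitosis (-0.16) and S phase (-0.21).

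In all 42 lists 931 genes were expressed, of which 22 were called, beside 0.618% of all expressed genes. The lists were drawn up with earlier results of these data known, so these counts describe the members and are not independent evidence. Leaving out 1 array also turned the sign of the small medians of the clock genes (-0.04 to 0.13), the antioxidant enzymes (-0.02 to 0.19) and the collagens (-0.0050 to 0.05), and that of all expressed genes lay between -0.05 and 0.0055.

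At E15.5 the mean of each of the 60 called genes lay between its means at E14.5 and E16.5, which was so for 33.8% of all expressed genes. The share of the change reached by E15.5 had a median of 57.5% for the higher genes and 65.4% for the lower genes, and it was above 50% in 40 of the 60. It was lowest for Ceacam1 at 0.729%, since its E15.5 arrays (4.63, 5.49 and 4.92) lay around the E14.5 level, and for Meox2 at 18.9%. It was highest for Hs6st2 at 96.7% and the clone 4632404M16Rik at 90.5%. Hbb-bh1 had 88.0%, but its E15.5 and E16.5 levels are near background. The other embryonic globins had 48.0% (Hbb-y) and 49.8% (Hba-x). Ceacam1 and 4632404M16Rik are named for their place in this order. These shares use the same E14.5 and E16.5 arrays as the calls.

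**Figure D4:**
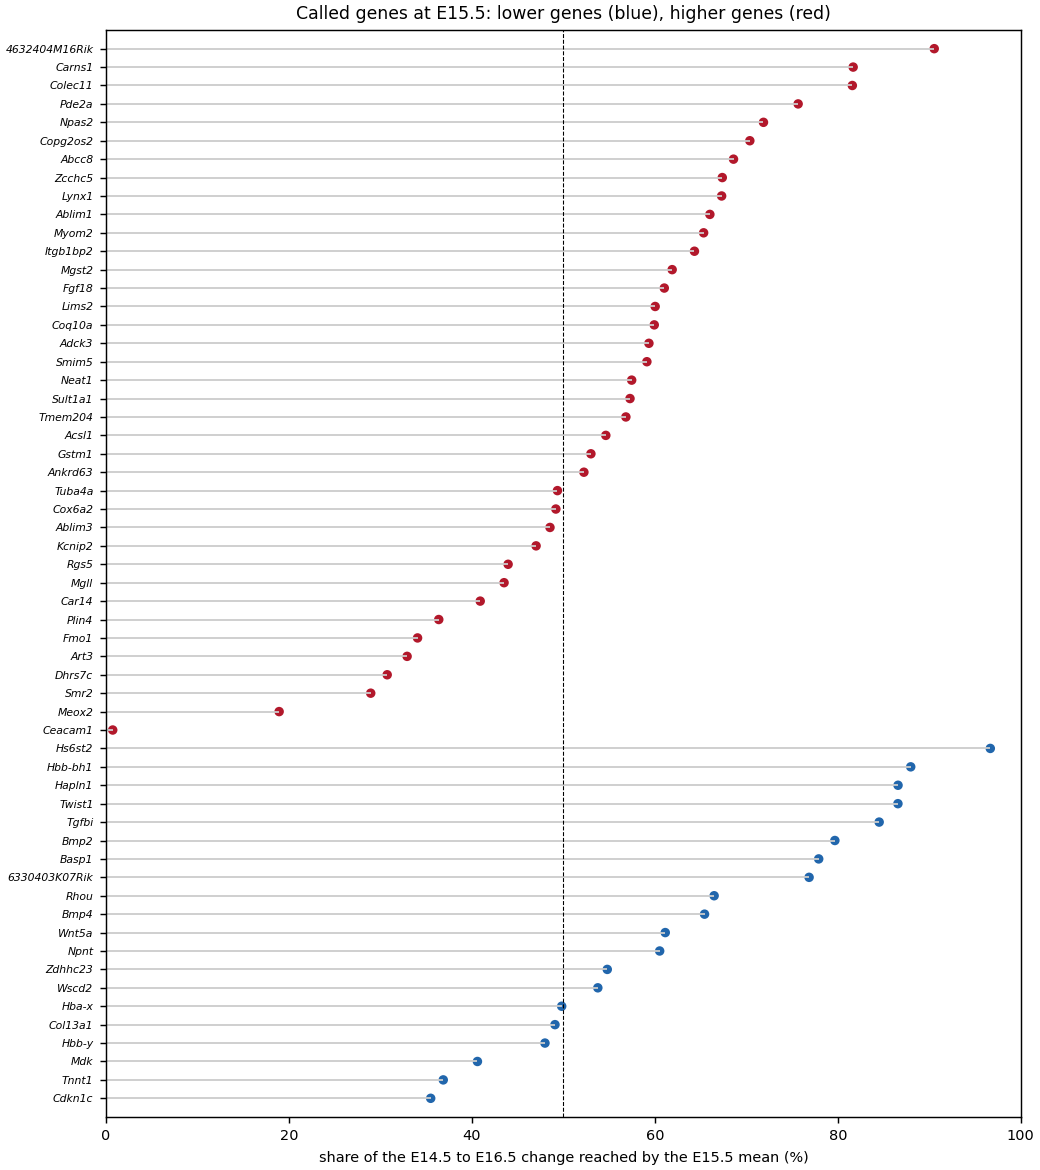
Share of the change from E14.5 to E16.5, in percent, that the E15.5 mean had reached in 58 of the 60 called genes, lower genes in blue below and higher genes in red above. All points lie between 0% and 100%, from Ceacam1 at 0.729% to Hs6st2 at 96.7%, and 38 lie to the right of the dashed line at 50%.

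The direction of the called genes was also read from arrays outside the comparison. Between E13.5 and E17.5 the means moved in the same direction in 39 of 39 higher and 21 of 21 lower genes, beside 74.3% of all expressed genes. The means of these stages did not enter the change from E14.5 to E16.5, but their arrays entered the variance behind the calls. The change from E12.5 to E14.5, which shares the E14.5 arrays, had the same sign in 37 of 39 and 19 of 21, and that from E16.5 to E18.5, which shares the E16.5 arrays, in 36 of 39 and 21 of 21. The exceptions after E16.5 were Zcchc5, Mgst2 and Colec11. Myom2 had a mean of 6.79 at E13.5 and 11.00 at E17.5, Kcnip2 3.81 and 6.99, Hapln1 7.02 and 3.30, and Hbb-y 13.63 and 3.66.

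Whether the 2-day step differed from its neighbours was tested as a difference of 2 changes in the same model. Against the step from E16.5 to E18.5, 0 of 9707 expressed genes passed in limma, 157 had an unadjusted p under 0.05, with no adjusted p below 0.999985. Over all 17028 expressed probe sets 1 passed, which carries no gene ID. It changed by 1.98 from E14.5 to E16.5 and by -0.71 from E16.5 to E18.5, a difference of 2.69 ± 0.38 (adjusted p = 0.00213). Against the step from E12.5 to E14.5, 6 genes passed (0.0618%), all with a negative difference. Hbb-y changed by -4.83 from E14.5 to E16.5 after a smaller fall in the step before, a difference of -3.83 ± 0.65 (adjusted p = 0.0140). The high Hbb-y levels up to E13.5, given above, limit what the smaller fall shows. For the amine oxidase Aoc3 and the apelin receptor Aplnr the earlier change was the larger one. Aoc3 changed by 3.53 from E12.5 to E14.5 and by 0.77 ± 0.22 afterwards (difference adjusted p = 0.000901), and Aplnr by 2.68 and then 0.47 (difference adjusted p = 0.0321). Leaving out 1 of the 6 arrays left between 1 and 5 genes, the fewest without the E14.5 male array. The E14.5 arrays enter both steps with opposite sign, so a deviation of these arrays moves both changes.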

How the data were processed

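The members of the comparison and the gene lists were chosen with earlier results of these data known. The deposited values are log2 intensities that the authors made by RMA. The submitters' processing notes also name Affymetrix Expression Console and Partek 6.6, and the version of RMA is not given in the sources used here. No offset or scaling was added, and depth, on arrays, is set by their number. The values were fitted with limma 3.58.1 in R 4.3.3 as 12 stage means over all 36 arrays (24 residual and 6.96 prior degrees of freedom), and p was adjusted by Benjamini-Hochberg over all 45101 probe sets. The filter on a mean above 5 was applied after the test. The threshold is wider than the study's 1e-05 and log2 change of 2. Each gene was read from the probe set with the highest mean over all arrays. Of 45101 probe sets 6937 carry no gene ID, and 332 gene IDs whose symbols were damaged were renamed from RefSeq (GRCm38.p6). Named were the 15 highest and 15 lowest changes, up to 4 called members a list and direction, and a fixed set of heart, globin and metabolic genes; 2 called genes are not reported here.

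The sex label was checked as a pairing of arrays. Deviations from the stage means correlated over 16484 probe sets at 0.135 for the female, 0.585 for the male and 0.613 for the mixed arrays of E14.5 and E16.5, all above 0.1. The E14.5 female array correlated more with the E16.5 male array (0.383), and the E14.5 mixed with the E16.5 female array at 0.127. The pups of 1 stage came from other animals than those of the next. The fit with the label as a replicate block was an alternative.

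Data for E16.5 against E14.5 were also simulated with 45101 probe sets. On the log2 scale, 71 of 100 changes of 1 and 88 of 100 changes of 1.5 were recovered, with 4 false calls. Recovery at levels near background was not tested, so these counts give no rate for called genes there. Recovery and false calls under deviations shared between arrays, such as those seen in the check of the sex label, were not tested. These counts therefore do not give the error rate of the calls reported here. Labels name liver and another RNA kit in the extraction protocol, while the methods name heart. The sample titles change a prefix at the E16.5 female array, which may or may not mark a batch.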

Additional observations from a re-analysis of the deposited data

Results flagged for a closer look

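For 6 genes the change from E14.5 to E16.5 differed from that from E12.5 to E14.5 in the limma test of the difference itself. The differences were -3.83 for Hbb-y, -2.76 for Aoc3, -2.22 for Aplnr, -2.07 for the flavin monooxygenase Fmo2, -1.77 for Zdhhc23 and -1.77 for 4632404M16Rik. The change of Hbb-y was negative in both steps. Zdhhc23 changed by 0.97 in the earlier step and by -0.80 in the later one, so that its direction turned at E14.5. The other 4 had changed by 2.43 to 3.53 up to E14.5 and by 0.36 to 0.95 after it. Against the step from E16.5 to E18.5 the difference was 2.69 for 1 probe set without a gene ID, whose change was 1.98 in this step and -0.71 in the next. Single outlying values within the groups of 3 arrays were not tested.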

How the results depend on the processing

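None of the 60 called genes changed its sign in the 15 alternative fits, while their number moved with the settings. At the study's limits 0 genes were higher and 2 lower (39 and 21 in the report), with 0 and 5 probe sets (59 and 29) and 2 list members (22), and at an adjusted p under 0.05 with a 2-fold change 25 and 13 genes and 37 and 19 probe sets were left, since both limits are stricter. With only the 9 arrays of E14.5 to E16.5 there were 75 and 38 genes, 111 and 55 probe sets and 44 list members, and with the hybridization controls as a covariate 80 and 32, 122 and 47, and 39. With the title prefix as a covariate there were 23 and 13 genes and 33 and 19 probe sets; this fit sets aside the E16.5 female array. Without a filter 49 probe sets were lower. Leaving out 1 array gave 22 to 27 higher and 6 to 14 lower genes, 33 to 41 and 11 to 21 probe sets, and 10 to 16 list members. The genes that differed from the step before (6) were 3 after centring, 3 after quantile normalization and 1 to 5 without 1 array. Against the next step 0 genes differed in every fit. The other settings stayed within 1.5 times these counts. Apart from the limits themselves, the cause was not tested.

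With the sex label as a replicate block 34 genes were higher and 20 lower (50 and 28 probe sets), and 52 of the 60 kept their call; the other 8 are named in the report.

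Small changes of genes that were not called turned sign. With the hybridization controls as a covariate these were Tnni1 (0.0953), Actc1 (0.0733) and Col3a1 (0.0305), and with quantile normalization Ccnb1 (-0.00574). Without 1 array the change lay between -0.252 and 0.297 for Tnni1, -0.222 and 0.146 for Actc1, -0.115 and 0.0365 for Col3a1, -0.0778 and 0.115 for Ccnb1, -0.156 and 0.717 for Nppa, -0.0355 and 0.719 for Fabp3 and -0.0177 and 0.246 for Nr3c1. The precision is set by 3 arrays a stage and, for values near 5, by their distance from background.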

Other observations

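Immediate early genes, which cells switch on within minutes of a stimulus or of handling, had the highest median of all lists with 10 or more expressed genes. All 24 expressed members had a positive change, with a median of 0.45 beside -0.03 for all expressed genes, but 0 were called in limma and 3 had an unadjusted p under 0.05. The E16.5 arrays were split. Fos read 10.93 and 10.57 in the female and male arrays of E16.5 and 6.31 in the mixed array, against 8.73, 7.45 and 8.91 at E14.5. Egr1 read 10.65, 10.58 and 7.37 against 8.80, 8.11 and 8.89, and the cytokine inhibitor Socs3 9.08, 9.12 and 6.05 against 7.12, 6.67 and 6.36. In all 3 the mixed array of E16.5 was the lowest of the 6 arrays. These genes were picked after their values were seen. The median of the list was between 0.29 and 0.72 over the alternative fits.

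Of 12 expressed macrophage and myeloid genes 0 were positive, with a median of -0.20, and 0 were called. Csf1r, the receptor that macrophages need to survive, read 8.18, 8.13 and 7.83 at E14.5 and 7.65, 7.75 and 7.35 at E16.5 and was the lowest of the list (-0.46, adjusted p = 0.812). Of 36 expressed cytosolic ribosomal proteins 1 was positive, with a median of -0.20 that ranged from -0.31 to -0.07, and of 54 splicing factors 14 were positive, with a median of -0.11. None of these was called. The hypoxia response (16 of 23 positive, median 0.17), the Notch pathway (10 of 18, 0.07) and heat shock proteins and chaperones (9 of 24, -0.12, and -0.22 to 0.04 without 1 array) had 0 calls each. In limma, 4, 0 and 2 of their members were higher and 0, 0 and 0 lower at an unadjusted p under 0.05. The mitochondrial creatine kinase Ckmt2 had the largest change of an expressed list member that was not called, at 4.22, 4.56 and 5.30 at E14.5 and 6.35 ± 0.62 (mean ± SD, n = 3) at E16.5, with wide spread in both stages (1.66 ± 0.54, adjusted p = 0.442).

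Of the 59 higher and 29 lower probe sets called, 5 and 2 carry no gene ID. The largest change among these probe sets was 1.98 ± 0.22 (limma adjusted p = 2.93e-06), more than any named gene but Myom2 among the rises, and is not named here.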
